A study of Mus musculus with 6 samples.

Results

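Immediate-early and heat shock genes were followed in the leukocytes of arthritic mouse joints. The set held 32 genes, 24 immediate-early genes from Fos to Csrnp1 and 8 heat shock genes from Hspa1a to Dnaja1, and all 32 were found by symbol among the 20394 genes counted.

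Immediate-early genes are transcribed within minutes of a signal reaching a cell, without need of new protein synthesis, and many encode transcription factors such as the Fos and Jun subunits of AP-1 or the zinc finger proteins of the Egr and Klf families. Others encode brakes on the same signals, among them the MAP kinase phosphatase Dusp1 and Zfp36, which destabilises cytokine mRNA. Heat shock genes encode chaperones that bind unfolded protein: cytosolic Hspa1a, Hspa1b and Hsph1 are strongly inducible by heat and other stress, Hspa8 is the constitutive member of the Hsp70 family, and Hspa5 serves the endoplasmic reticulum. Both sets respond to inflammatory signals in tissue and to the enzymatic digestion that releases cells from it, and no undigested sample was analysed here, so the 2 sources cannot be told apart.

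C57BL/6 mice had antigen-induced arthritis, in which animals immunised with methylated BSA in complete Freund's adjuvant receive the same antigen into the knee. They were given PBS (2 samples) or PEPITEM, a peptide released by B cells that limits leukocyte migration, at 300 μg (4 samples). CD45+ cells, that is leukocytes, were sorted from digested synovium and counted by 3′ single-cell RNA sequencing, which counts a transcript once through its unique molecular identifier (UMI) whatever its length. A number on each cell barcode separated 6 libraries, but no sample label carries that number, so PBS and PEPITEM cells were not compared and every value below describes libraries of unknown treatment.

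The 6 libraries held 2919 to 9345 cells, 32953 in all, with a median of 9923 to 14001 UMIs per cell and 1.62% to 2.36% mitochondrial UMIs. Of the 32815 different barcode sequences, 138 occurred in more than 1 library, with at most 21 shared by any pair. Cells were grouped into 33 clusters without using the 32 genes, and 13 classes of at least 100 cells were named by marker genes. Libraries differed in make-up: neutrophil-like cells were 11.0% to 44.9% of a library, so levels are given per class and library, as counts per 1000000 UMIs of that class (CPM), with the lowest, median and highest library. The CD45+ sort still held 162 fibroblast-like cells, in which all 5 of 5 fibroblast markers were highest. Support was partial elsewhere: 4 of 8 markers in inflammatory macrophage-like, 4 of 6 in monocyte-like, 3 of 5 in stem and progenitor-like and 4 of 5 in innate lymphoid cell-like cells. Marker genes of each single cell gave the same class to 35.4% of inflammatory and 41.2% of resident macrophage-like cells, against 99.6% of neutrophil-like cells. Classes were drawn from the same cells, so differences between them are described by whether the library ranges overlap and were not tested.

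Stretches upstream of a RefSeq transcription start are shown for members whose library or cluster values are described below. They give the letters of known stress and signal response elements there. Those of Hsph1, Hspa5 and Zfp36 touch an annotated exon, so they are upstream of that RefSeq start only. Levels were not compared by element. RefSeq windows (GRCm38.p6) of 250 bases before the start were held for 27 of the 32 genes, 21 immediate-early and 6 heat shock, and Egr1, Egr3, Ier2, Hsp90aa1 and Hspa8 had none. Paired heat shock units, searched on both strands as GAANNTTC or TTCNNGAA, were found in 12.8% of all 32851 windows and in those of Hspa1a, Hspa1b, Hsph1, Dnaja1, Fosl2, Jun and Egr2. A further unit in the same spacing (GAANNTTCNNGAA or TTCNNGAANNTTC) was present in 0.466% of windows and in no member. The paired units, in capitals, lay 104 bases before the start in Hspa1a (chr17:34972157-34972286, minus strand) and Hspa1b (chr17:34959239-34959368, minus strand), whose 250 upstream bases match at 247 positions, and at 33 bases in Hsph1 (chr5:149636351-149636380, minus strand).
Hspa1a: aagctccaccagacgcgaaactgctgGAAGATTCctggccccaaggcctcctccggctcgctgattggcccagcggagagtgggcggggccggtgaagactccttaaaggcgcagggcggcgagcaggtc
Hspa1b: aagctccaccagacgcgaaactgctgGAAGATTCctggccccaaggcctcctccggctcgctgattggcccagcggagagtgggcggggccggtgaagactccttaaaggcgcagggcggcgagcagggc
Hsph1: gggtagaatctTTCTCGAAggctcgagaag

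The endoplasmic reticulum stress element, a CCAAT box followed after 9 bases by CCACG, was present in 37 of the 32851 windows (0.113%), and among the members only in that of Hspa5 (chr2:34772020-34772049, plus strand). A CArG box, the site of serum response factor, was found in 1.47% of windows and in Egr2 and Zfp36 (chr7:28379267-28379296, minus strand). The cAMP response element TGACGTCA was found in 1.55% of windows and in Maff, Dusp1 (chr17:26508583-26508642), Btg2 (chr1:134079286-134079345) and Ppp1r15a (chr7:45526269-45526328), the last 3 all on the minus strand. The capitals below mark these elements. A match describes the letters only, not occupancy by a factor.
Hspa5: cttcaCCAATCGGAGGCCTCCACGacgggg
Zfp36: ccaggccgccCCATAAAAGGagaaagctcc
Dusp1: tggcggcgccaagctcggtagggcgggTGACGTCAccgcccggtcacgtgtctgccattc
Btg2: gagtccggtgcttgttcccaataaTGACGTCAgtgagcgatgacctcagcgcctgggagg
Ppp1r15a: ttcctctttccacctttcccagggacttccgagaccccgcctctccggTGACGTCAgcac

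Mast cell-like cells carried the highest summed immediate-early level and granulocyte precursor-like cells the lowest, whereas heat shock genes followed another order. The 24 immediate-early genes together reached a median of 37841 CPM in mast cell-like cells (24538 to 47057 over the 6 libraries). Fibroblast-like cells followed at 18366 CPM (12127 to 29538, with as few as 9 cells in a library) and resident macrophage-like cells at 16163 CPM (14082 to 19573). These neighbouring ranges overlapped, and the mast cell-like range overlapped that of fibroblast-like cells but lay above that of resident macrophage-like cells.

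Innate lymphoid cell-like cells had 12219 CPM (8964 to 14940) and inflammatory macrophage-like cells 10567 CPM (8794 to 11855). Monocyte-like cells had 8195 CPM and dendritic cell-like cells 7685 CPM. Neutrophil-like, T cell-like, stem and progenitor-like, NK cell-like and B cell-like cells lay close together, with medians of 6524, 6170, 5917, 5807 and 5334 CPM and overlapping ranges. Granulocyte precursor-like cells stood below all of these at 2811 CPM (1912 to 3425), with a range that met none of the other 12. This class joined 2 unlike clusters, each with at least 20 cells in 4 libraries. The cluster led by Elane (521 cells) had 1451 to 1995 CPM. That led by Prg2 (514 cells) had 3642 to 4750 CPM, a range that met that of B cell-like cells.

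The 8 heat shock genes had their highest median sums in stem and progenitor-like cells, at 5282 CPM (3899 to 8403), and in granulocyte precursor-like cells, at 4745 CPM (3193 to 6182). These leads were not separated by library, as both ranges met that of NK cell-like cells (3406 to 6549 CPM). The other 10 classes lay between 3020 CPM in innate lymphoid cell-like cells and 4240 CPM in T cell-like cells, with overlapping ranges, and mast cell-like cells were among them at 3666 CPM (2038 to 4731). Neutrophil-like cells were far lower, at 1044 CPM (914 to 1143), and their highest library lay below the lowest library of every other class. The denominator was also taken without mitochondrial genes and the 50 genes with the most UMIs over all cells. This took away 46.1% of neutrophil-like UMIs, with 53.3% in a cluster led by Ltf and 23.6% in one led by Csf1. The neutrophil-like level was then 1600 to 2131 CPM.

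**Figure D1:**
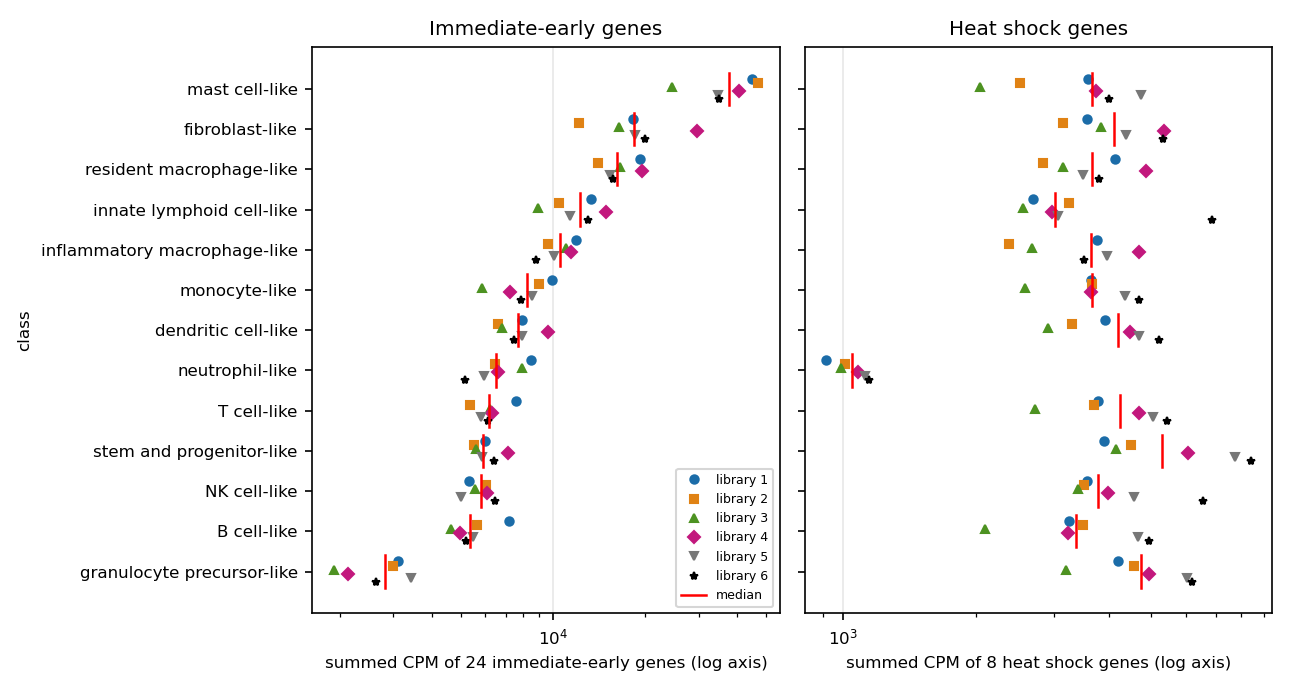
Summed level of the 24 immediate-early genes and of the 8 heat shock genes in 13 cell classes (CPM, logarithmic axis). Each point is 1 of 6 libraries and the red mark their median. Mast cell-like cells stand highest for the immediate-early sum (median 37841 CPM) and neutrophil-like cells lowest for the heat shock sum (median 1044 CPM).

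Gene by gene, 18 of the 32 members had their highest median in mast cell-like cells, 17 of them immediate-early genes and 1 a chaperone cofactor, Dnajb1 (299 CPM). The share of all genes with their highest median in that class is not given. The other 14 members were spread over 7 classes. Fibroblast-like cells led for Klf4 (1857 CPM), for the cytokine signalling inhibitor Socs3 (701 CPM), for the small Maf protein Maff (182 CPM) and for Hspa5 (756 CPM). Resident macrophage-like cells led for the stress transcription factor Atf3 (847 CPM) and for Ier3 (653 CPM), the latter next to 637 CPM in inflammatory macrophage-like cells.

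Innate lymphoid cell-like cells led for Gadd45b (1189 CPM, 339 to 1542), a regulator of stress kinase signalling, and for the Hsp70 partner Dnaja1 (846 CPM). For Gadd45b, fibroblast-like cells came next with a median of 316 CPM and up to 435 CPM in a library, so the ranges met. Neutrophil-like cells led for the antiproliferative gene Btg2 (749 CPM) and monocyte-like cells for Hspa1a (521 CPM) and Hspa1b (281 CPM). Stem and progenitor-like cells led for the constitutive Hspa8 (2073 CPM) and for Hsp90aa1 (1460 CPM), and B cell-like cells for Hsph1 (187 CPM). Several of these leads were narrow, as for Btg2, which had 695 CPM in resident macrophage-like cells, or Hspa1a, which had 498 CPM there.

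Neutrophil-like cells were the lowest class for all 8 heat shock genes and for Jun and Klf4 among the immediate-early genes. They were low for many other genes too, as 60.2% of 9176 genes were higher in every inflammatory macrophage-like library. The share of all genes that were lowest in neutrophil-like cells is not given. Their highest library lay below the lowest library of every other class for 2 of 8 heat shock genes and 0 of 24 immediate-early genes, beside 3.94% of the 16207 genes tested. Those 2 were Hspa8 (268 to 376 CPM, against at least 621 CPM elsewhere) and Hspa5 (123 to 208 CPM, against at least 230 CPM). Hsph1 (0.736 to 4.54 CPM) joined them when libraries with under 20 cells of another class were left out, since a small mast cell-like library had 0 CPM, which made 3 of 8 beside 8.7% of 15161 genes. With the other denominator 1 of 8 was below every other class (Hspa8), and with cells assigned by marker genes 0 of 8. The shares of all genes under these settings are not given. The comparison with every other class was made after values were seen, in the class with the lowest heat shock sum. Low heat shock genes there follow in part from that choice. Egr3 was the one member near 0 throughout, with 242 UMIs in all cells, and it was not tested in the comparisons of classes. Outside the 13 classes, 53 basophil-like cells (2 to 26 in a library) had 4494 CPM of Ier3, with 2488 to 9860 CPM over libraries.

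**Figure D2:**
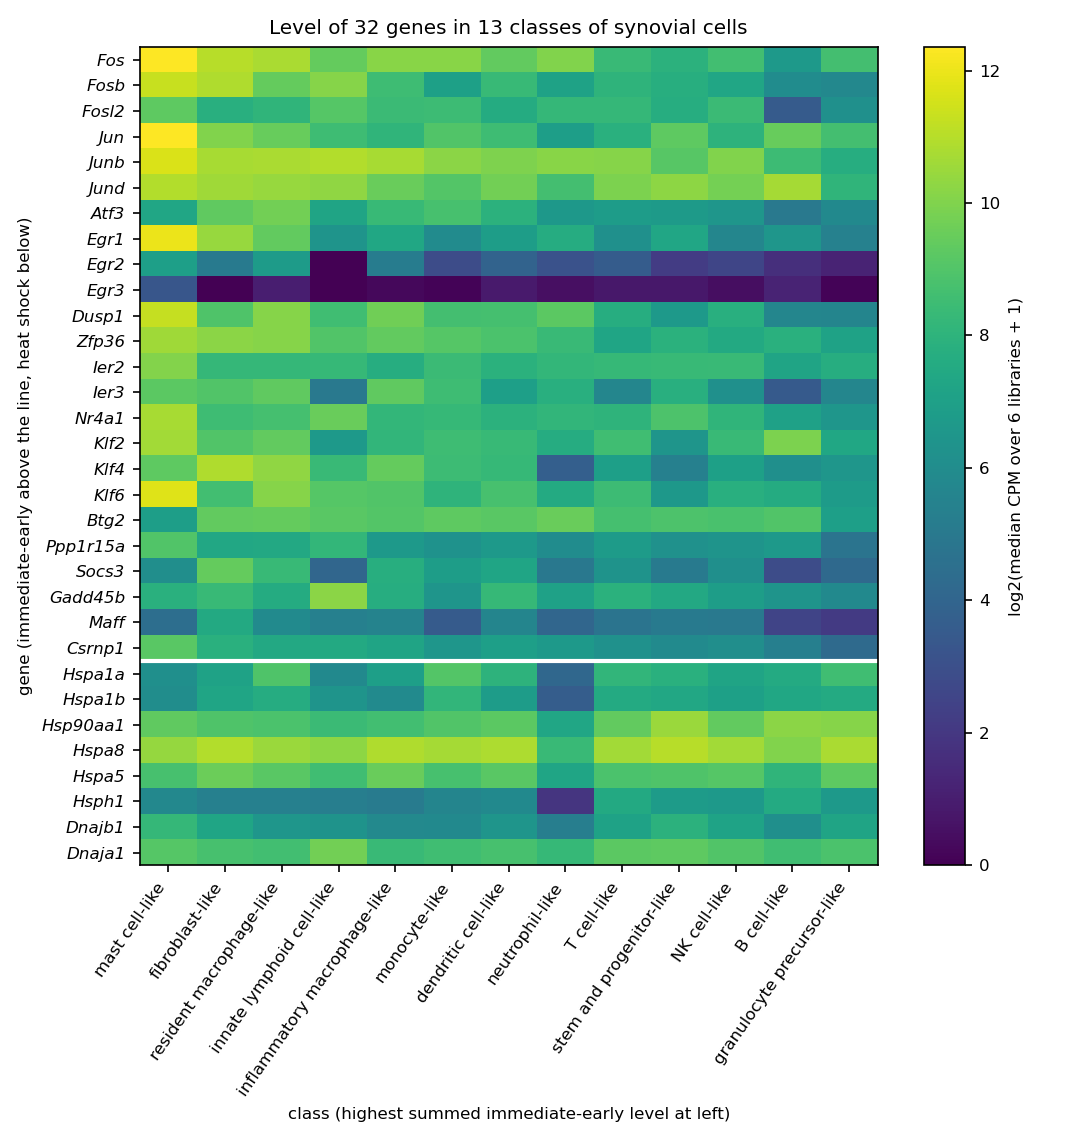
Level of each of the 32 members in 13 cell classes, as log2 of the median library CPM plus 1, with classes ordered by the summed immediate-early level. Yellow marks high and dark blue low levels. The mast cell-like column is brightest for 17 of 24 immediate-early genes, and the neutrophil-like column is darkest for all 8 heat shock genes. The shares of all genes with these patterns are not given.

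Mast cells are tissue-resident cells that release histamine and proteases. The 191 mast cell-like cells (15 to 68 in a library) held all 5 of 5 mast cell markers at their highest level. Fos, which encodes an AP-1 subunit, had 3077, 5238 and 6996 CPM as lowest, median and highest mast cell-like library, and its lowest library lay below a fibroblast-like library of 11 cells with 6028 CPM. Among libraries with at least 20 cells of another class the highest had 2446 CPM, in resident macrophage-like cells. Jun, its partner, had 2660, 5236 and 6392 CPM, against 2100 CPM in the same fibroblast-like library and 1097 CPM in the highest of at least 20 cells. Egr1 had 2630, 4053 and 4692 CPM, against 2586 and 1337 CPM. The lowest mast cell-like library was thus above every library of the other classes for Jun and, narrowly, for Egr1, and for Fos only when the small libraries were left out.

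Klf6 (2834, 3489 and 4634 CPM, against 1221 CPM in a resident macrophage-like library), Ier2 (813, 1051 and 1282 CPM, against 427 CPM) and Csrnp1 (527, 592 and 834 CPM, against 281 CPM) were also above every other library. Klf2 (1242, 1609 and 2997 CPM) met the 1336 CPM of the small fibroblast-like library but lay above the 1148 CPM of a B cell-like one, the highest of at least 20 cells. In all, 5 of 24 immediate-early genes and 0 of 8 heat shock genes were above every other class, beside 1.08% of the 15963 genes tested. With libraries of under 20 cells of the other classes left out, Fos and Klf2 were added, giving 7 of 24 and 0 of 8 beside 1.36% of 14926 genes. These counts were made after values were seen, in the class with the highest immediate-early sum. High immediate-early genes there follow in part from that choice, and the counts show how the sum was spread over genes. Fosb, Dusp1, Nr4a1 and Junb were highest in mast cell-like cells too, with medians of 2569, 2496, 1708 and 3192 CPM, but their lowest library lay below the highest library of another class.

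The mast cell-like pattern did not extend to every member. Btg2 had a median of 123 CPM (10.6 to 260), the lowest of the 13 classes, Socs3 had 66.7 CPM and Maff 21.3 CPM. Hspa1a (9.71, 70.0 and 302 CPM) and Hsph1 (0, 53.6 and 89.8 CPM) overlapped the ranges of most classes. The 5 genes were again above every other library with the other denominator, and 8 were (with Nr4a1, Klf2 and Ppp1r15a) when cells were assigned by marker genes alone. The share of all genes is given for neither setting.

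Depth per cell was low in mast cell-like cells, with a median of 4599 UMIs against 12679 in resident macrophage-like cells, so cells were also thinned to 2000 UMIs. Egr1 was then seen in 89.9% of 158 mast cell-like cells (95% Wilson interval 84.2% to 93.7%), in 70.9% of fibroblast-like and 48.7% of resident macrophage-like cells, and in 7.18% of granulocyte precursor-like cells. Before thinning, the share was 95.3% in mast cell-like and 32.4% in granulocyte precursor-like cells. Most mast cell-like cells thus carried the transcript, and the interval covers counting error only.

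**Figure D3:**
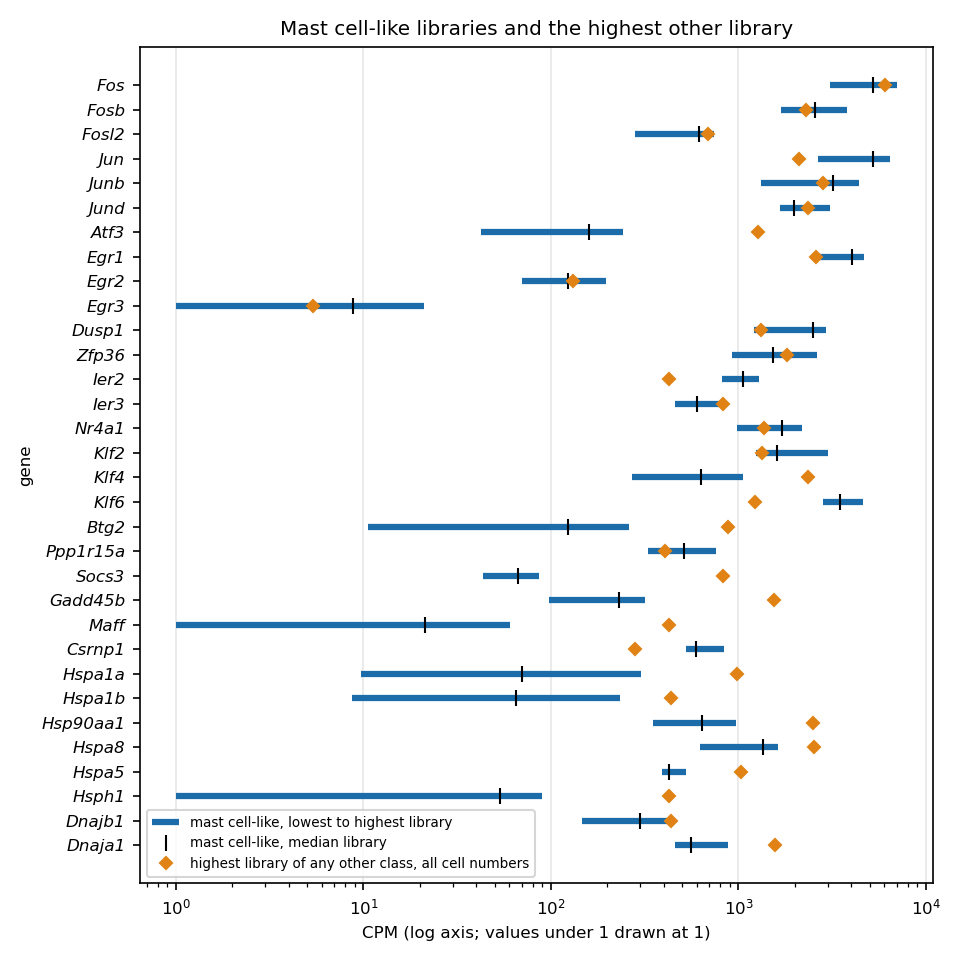
Level of each member in mast cell-like cells (bar from lowest to highest library, tick at the median, CPM, logarithmic axis with values under 1 drawn at 1) beside the highest library of any other class, libraries of few cells included (diamond). For 5 immediate-early genes, from Jun (2660 to 6392 CPM, against 2100 CPM) to Csrnp1 (527 to 834 CPM, against 281 CPM), the whole bar lies to the right of the diamond, for Egr1 only just.

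Resident macrophage-like cells, marked by Lyve1 and Cd163, were compared with inflammatory macrophage-like cells, the class rich in Arg1 and Cxcl9. Of 31 members tested (at least 5 CPM in either class), 16 were higher in every resident macrophage-like library than in any inflammatory one, and 1 was lower. Among all 9507 genes tested, 19.7% were higher and 7.73% lower. Compared library by library, which keeps each library's own level out of the comparison, 24 members were higher in all 6 libraries and 1 lower, beside 35% and 18.9% of genes. The 16 comprised 14 immediate-early genes (Fos, Fosb, Jun, Jund, Atf3, Egr1, Egr2, Zfp36, Nr4a1, Klf2, Klf4, Klf6, Ppp1r15a and Socs3) and the heat shock genes Hspa1a and Hspa1b.

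Hspa1a had 191, 498 and 655 CPM in resident macrophage-like libraries and 60.8, 124 and 153 CPM in inflammatory ones, a ratio of 4.86 on pooled cells. Hspa1b had 93.0, 199 and 420 CPM against 30.4, 59.2 and 68.1 CPM, a ratio of 5.25. The other 6 chaperones overlapped, although Hsp90aa1, Dnajb1 and Dnaja1 were also higher in all 6 libraries when compared within them. With cells assigned by marker genes alone, 0 of 8 chaperones had ranges apart. Near-identical paralogs can share reads, and 62.3% of the 50-base stretches of the Hspa1b transcripts also occur in Hspa1a, but none did in the last 500 bases, near which 3′ counting reads.

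Egr1 had 475, 674 and 905 CPM in resident and 116, 162 and 206 CPM in inflammatory macrophage-like libraries, a ratio of 4.34. Egr2 had 49.4, 110 and 132 CPM against 17.1, 35.7 and 45.3 CPM, a ratio of 3.37. Fosl2, an AP-1 subunit, went the other way, with 239, 268 and 278 CPM against 309, 338 and 378 CPM, a ratio of 0.770. The counts were 16 and 1 with the other denominator as well, beside 19.6% and 9.06% of all genes. By marker genes they were 14 and 1. Of the further immediate-early genes listed beside the members, 7 of 26 tested were higher and 2 lower, and of the endoplasmic reticulum stress genes 2 of 16 were higher and 0 lower. A resident macrophage-like cluster of 150 cells with few UMIs (median 2118) had a summed immediate-early level of 3093 CPM, against 17726 CPM in the main one of 2304 cells.

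Monocytes are the blood precursors of inflammatory macrophages. Between inflammatory macrophage-like and monocyte-like cells, ranges were apart for some immediate-early genes and for no heat shock gene. Of 31 members tested, 9 were higher in inflammatory macrophage-like cells (Fosb, Junb, Egr1, Egr2, Ier3, Klf4, Klf6, Gadd45b and Maff) and 1 was lower, beside 13.4% higher and 15% lower among all 9203 genes. The 8 heat shock genes gave 0 in either direction. Within libraries, 15 members were higher in all 6 and 3 lower in all 6, beside 26.8% and 28.2% of genes, and the chaperones among them were Hspa5 (higher) and Hspa1a and Hspa1b (lower). The monocyte-like class was mixed. In its cluster led by Adgre4, Pparg and Ace (659 cells) Egr1 had 121 to 272 CPM and Junb 1066 to 1580 CPM. Both ranges met those of inflammatory macrophage-like cells, while Fosb, Egr2, Ier3, Klf4, Klf6, Gadd45b and Maff stayed below them there.

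Egr2 had 17.1, 35.7 and 45.3 CPM in inflammatory macrophage-like and 3.03, 6.29 and 11.6 CPM in monocyte-like libraries. Maff had 31.2, 45.1 and 55.5 CPM against 7.53, 10.7 and 18.2 CPM. Fosb had 260, 362 and 532 CPM against 98.5, 128 and 175 CPM. These 3 genes were well apart, as was Gadd45b, with 173, 209 and 267 CPM against 55.1, 84.6 and 96.8 CPM.

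Ier2 was lower, with 196, 207 and 235 CPM against 244, 341 and 370 CPM, a ratio of 0.623. Hspa1a had a median of 124 CPM in inflammatory macrophage-like and 521 CPM in monocyte-like cells, yet the ranges met because one monocyte-like library had 124 CPM. Hspa5 had 898, 403, 722, 952, 733 and 525 CPM in libraries 1 to 6 of inflammatory macrophage-like cells and 468, 350, 416, 531, 403 and 454 CPM in those of monocyte-like cells, so the ranges overlapped while each library had more in the former. Of 18 NF-kappaB response genes, which include Il1b and Tnf, 11 were higher and 0 lower. Without library 1 the members higher were 14, and without library 3 the members lower were 3.

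Inflammatory macrophage-like cells were next set against neutrophil-like cells, the most numerous class with 10930 cells. Within each library the summed immediate-early level was 1.39 to 1.73 times higher in inflammatory macrophage-like cells (median 1.59) and the summed heat shock level 2.35 to 4.34 times higher (median 3.31). Of 31 members, 18 were higher and 1 lower, beside 60.2% higher and 13.6% lower among all 9176 genes, so the members' share was close to that of all genes. The heat shock genes gave 7 of 8 higher and the immediate-early genes 11 of 23 higher and 1 lower. Within libraries, 23 members were higher in all 6 and 2 lower (Ier2 and Btg2), beside 69.2% and 17.7% of genes. The lower immediate-early sum of the neutrophil-like class did not hold in each of its clusters. It was 12347 to 15030 CPM in the cluster led by Gm5483 (3092 cells) and 18820 to 23121 CPM in that led by Csf1 (1334 cells). Both ranges lay above that of inflammatory macrophage-like cells.

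Klf4, a transcription factor of the monocyte lineage, had 547, 697 and 764 CPM in inflammatory macrophage-like and 3.97, 12.5 and 28.9 CPM in neutrophil-like libraries, a ratio of 58.2 on pooled cells. Hsph1 had 15.4, 34.7 and 58.7 CPM against 0.736, 2.72 and 4.54 CPM. Socs3 had 150, 211 and 227 CPM against 22.6, 29.8 and 54.5 CPM, and Egr2 had 7.72 CPM as its neutrophil-like median. Ier2 was lower in inflammatory macrophage-like cells, at a ratio of 0.705. All 5 genes thus had library ranges that did not meet.

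The result depended on the denominator. Without mitochondrial genes and the 50 genes with the most UMIs over all cells, which were 46.1% of neutrophil-like and 21.5% of inflammatory macrophage-like UMIs, 10 members were higher and 3 lower (Fosl2, Ier2 and Btg2), beside 40.8% and 23.8% of all genes. Cells assigned by marker genes alone gave 4 higher and 2 lower. That assignment also changed the classes, to 2040 inflammatory macrophage-like and 14688 neutrophil-like cells. The share of all genes under it is not given, so the change cannot be read as one of the members alone. Without library 5 or without library 6 the members lower were 2. Klf4, Egr2, Socs3, Jun, Atf3, Ier3 and Klf6 were the immediate-early genes higher under both denominators.

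Granulocyte precursor-like cells, which carry the primary granule genes Mpo and Elane, differed from neutrophil-like cells in opposite directions for the 2 gene sets. In neutrophil-like cells 15 of 23 immediate-early genes were higher and 1 was lower, while 0 of 8 heat shock genes were higher and 7 lower. Among all 9522 genes tested, 16.2% were higher and 56.9% lower, so the heat shock genes went the way of most genes. With the other denominator the immediate-early counts were 18 and 1 and the heat shock counts 0 and 5, beside 23.0% and 45.4% of all genes. Cells assigned by marker genes gave 16 and 0 immediate-early genes but only 2 heat shock genes lower, Hsp90aa1 and Hspa8, so the lower chaperone count depended on how cells were assigned. The share of all genes under that assignment is not given, so the change cannot be read as one of the chaperones alone. Within libraries 18 members were higher in all 6 and 10 lower, among them all 8 heat shock genes, beside 20.3% and 64% of genes.

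Dusp1 had 392, 599 and 888 CPM in neutrophil-like and 10.9, 48.2 and 80.5 CPM in granulocyte precursor-like libraries, a ratio of 8.04 on pooled cells. Junb, an AP-1 subunit, had 833, 1125 and 1492 CPM against 144, 207 and 249 CPM. Btg2 had 590, 749 and 874 CPM against 87.4, 124 and 198 CPM, a ratio of 4.63. In these genes the lowest library of the whole neutrophil-like class stood far above the highest precursor library, and Csrnp1 showed a like ratio of 4.59. This did not hold in each of its clusters. In one led by Ltf and Ngp (2014 cells) Dusp1 had 43.3 to 82.0 CPM and Junb 233 to 356 CPM. Btg2 had 181 to 285 CPM and Csrnp1 9.06 to 29.7 CPM there, and all these ranges met those of the precursors. In the cluster led by Csf1, Dusp1 had 2422 to 3115 CPM.

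Klf4 was lower in neutrophil-like cells, with 3.97 to 28.9 CPM against 70.6 to 130 CPM. Hsph1 had 0.736, 2.72 and 4.54 CPM in neutrophil-like and 22.5, 98.6 and 199 CPM in precursor libraries, a ratio of 0.0207. Hspa1a had 0.736, 16.3 and 43.3 CPM against 43.7, 376 and 650 CPM, so the ranges only just failed to meet, and Hspa1b had a ratio of 0.0870. Further chaperones were lower for 15 of 20 tested and higher for 0. Endoplasmic reticulum stress genes were lower for 13 of 17, and the 1 that was higher was Ddit3, which encodes the stress transcription factor CHOP.

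The neutrophil-like class was not uniform. Its 6 clusters had heat shock sums between 697 and 1520 CPM in every library with at least 20 cells, while the immediate-early sum ran from 2247 to 23121 CPM. It was lowest in a cluster led by Ltf and Ngp, genes of neutrophil secondary granules (2247 to 3483 CPM), and in one led by Fcnb and Mki67 (2329 to 3643 CPM). It was 5422 to 6434 CPM in the cluster led by Retnlg and Mmp8 and 5717 to 7432 CPM in a smaller cluster led by Ltf and Dach1. It reached 12347 to 15030 CPM in the cluster led by Gm5483 and Stfa2l1 and 18820 to 23121 CPM in that led by Csf1, Ccrl2 and Ptgs2.

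The Csf1-led cluster (1334 cells, median 3915 UMIs) was compared with the larger Ltf-led one (2014 cells, median 12645 UMIs) after these values were seen. These clusters stood at or near the ends of the immediate-early sum. Higher immediate-early genes in the Csf1-led one therefore follow from the choice, and their count only shows how the sum was spread over genes. Of 23 immediate-early genes tested, 21 were higher in the Csf1-led cluster and 0 lower, with Jun and Klf2 overlapping, and of 7 heat shock genes 2 were higher (Hspa5 and Dnajb1) and 0 lower. Among all 7464 genes, 30.4% were higher and 15.4% lower. The median ratio was 12.1 over the immediate-early genes, 1.22 over the heat shock genes and 1.18 over all genes.

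Junb had 3465, 3698 and 4609 CPM in the Csf1-led and 233, 289 and 356 CPM in the Ltf-led cluster. Dusp1 had 2422, 2650 and 3115 CPM against 43.3, 55.8 and 82.0 CPM. Egr1 had 707, 885 and 1416 CPM against 12.0, 19.2 and 29.4 CPM. All 6 libraries of the Csf1-led cluster stood far above those of the Ltf-led one in these genes. Btg2 had 1957, 2348 and 2950 CPM against 181, 208 and 285 CPM. Atf3, with 432 to 618 CPM against 1.28 to 11.1 CPM, had the widest pooled ratio of the genes named, 113.

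NF-kappaB response genes were higher in the Csf1-led cluster for 16 of 17 tested and lower for 0. Ptgs2, Cxcl2 and Tnfaip2 of that list were among the leading genes of the cluster, so this count is no separate evidence. With the other denominator, which left out 23.6% of UMIs in the Csf1-led and 53.3% in the Ltf-led cluster, 19 immediate-early genes were higher (no longer Fos and Ier2), 0 heat shock genes were higher and Hspa8 was lower, beside 15.3% and 32.6% of all genes. Because clusters are built from the same cells and the levels of correlated genes, these values are descriptions. The part of the depth difference in them was not tested.

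**Figure D4:**
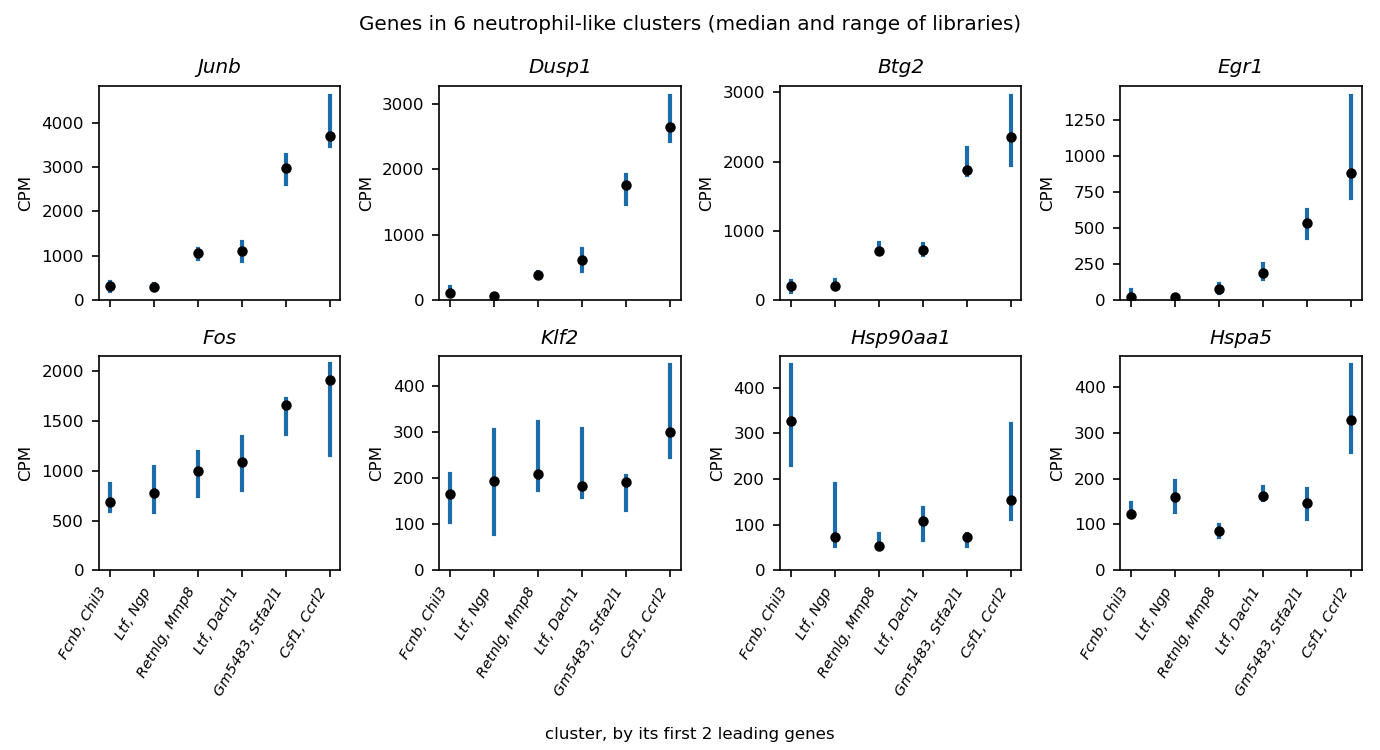
Level of 6 immediate-early genes and 2 heat shock genes in the 6 neutrophil-like clusters (CPM, point at the median library, bar from lowest to highest library). Junb, Dusp1, Btg2 and Egr1 are highest in the cluster led by Csf1 (Junb median 3698 CPM) and low in that led by Ltf (289 CPM). Hspa5 is also highest in the cluster led by Csf1, and it spans 72.9 to 449 CPM over all clusters.

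T cell-like and B cell-like cells differed in which immediate-early genes they carried. Much of the B cell-like class carried genes of B cell precursors. It held a cluster of 1951 cells with Rag1 among its leading genes, one of 620 led by Vpreb1 and Igll1, and one of 1539 led by Ms4a1. A cluster of 843 cells led by Bank1 and Ighd stayed unnamed. The comparison is thus not one of T cells with mature B cells alone. In T cell-like cells 13 of 31 members were higher (12 immediate-early genes and Hspa5) and 4 lower, beside 16.8% higher and 28.4% lower among all 10596 genes. Within libraries 20 members were higher in all 6 and 6 lower, beside 23.4% and 40.3% of genes. Fosl2 had 292, 303 and 389 CPM in T cell-like and 6.94, 10.8 and 15.1 CPM in B cell-like libraries, a ratio of 32.1. Socs3 had 55.2, 79.5 and 88.0 CPM against 4.51, 6.26 and 9.59 CPM, a ratio of 12.6. Both genes were thus scarce in B cell-like cells, as was Maff, with 3.46 to 8.56 CPM.

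The 4 genes lower in T cell-like cells were Jun (157, 232 and 292 CPM against 408, 711 and 932 CPM), Klf2 (287, 384 and 473 CPM against 589, 957 and 1148 CPM), Jund (687, 952 and 1189 CPM against 1232, 1645 and 2352 CPM) and Btg2 (313, 411 and 422 CPM against 450, 517 and 625 CPM). Jun and Klf2 alone remained lower, 2 members in place of 4, with cells assigned by marker genes or with 2 unnamed B-type clusters added to the B cell-like class, the latter chosen after values were seen. Jund was no longer lower with the other denominator. Fosb, Fosl2 and Junb were higher in T cell-like cells under each of these settings, and Jun was lower under each. In the whole classes Klf2, which keeps lymphocytes quiescent and recirculating, was on the B cell-like side. Hspa5 had 389, 466 and 548 CPM against 230, 273 and 302 CPM, and the other 7 chaperones overlapped. Within libraries Hspa8, Dnajb1 and Dnaja1 were also higher and Hsp90aa1 lower in all 6.

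Levels also differed between libraries within a class, and most for the inducible chaperones Hspa1a, Hsph1 and Hspa1b. Among 10 classes with at least 20 cells in each library, the highest library exceeded the lowest by a median of 9.47-fold for Hspa1a, 8.86-fold for Hsph1, 7.39-fold for Hspa1b, 2.99-fold for Dnajb1 and 2.20-fold for Hsp90aa1. The same fold was 1.56 for Hspa8 and 1.59 for Hspa5, and over all genes tested its median was 1.45 to 2.03 by class. Among the immediate-early genes tested it ran from 1.41 for Fosl2 to 2.91 for Atf3. Egr2 (2.67), Jun (2.40), Egr1 (2.33), Socs3 (2.27) and Fos (2.26) also exceeded Hsp90aa1. For Hspa1a the fold ran from 2.51 in inflammatory macrophage-like to 35.0 in stem and progenitor-like cells. It was higher still in neutrophil-like cells, where some libraries were at the floor of 3 UMIs.

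In libraries 1 to 6, B cell-like cells had 186, 186, 51.0, 183, 359 and 443 CPM of Hspa1a, and monocyte-like cells had 456, 586, 124, 306, 690 and 772 CPM. Hsph1 followed the same order at its ends, with 185, 188, 64.4, 178, 356 and 371 CPM in B cell-like cells. Library 3 was thus lowest and library 6 highest in each series. Hspa5 in inflammatory macrophage-like cells had 898, 403, 722, 952, 733 and 525 CPM, lowest in library 2 and highest in library 4.

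Summed over the 8 heat shock genes, library 6 was highest in 8 of 10 classes and library 3 lowest in 6 of 10. The immediate-early sum was highest in library 1 in 5 of 10 classes and lowest in library 2 in 4 of 10. Within single clusters, so apart from the mix of clusters in a class, library 3 was lowest for Hspa1a in 15 of 20 clusters, for Hspa1b in 15 of 20, for Hsph1 in 15 of 17, for Dnajb1 in 15 of 21 and for Hsp90aa1 in 14 of 21. Hspa5 was lowest in library 2 in 12 of 21 clusters and highest in library 4 in 11 of 21. Library 3 was also lowest for Dnaja1 in 15 of 21 clusters, and for Hspa8, Klf2, Btg2 and Zfp36 in 11 of 21 each. The share of all genes lowest in library 3 by cluster is not given here.

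Across neutrophil-like, monocyte-like, inflammatory macrophage-like and B cell-like cells, 4 of 29 members tested had their highest level in the same library in all 4 classes, beside 8.4% of 6319 genes. They were Atf3, Zfp36, Ppp1r15a and Socs3, each in library 1. Atf3 had 521, 259, 309, 440, 314 and 319 CPM in inflammatory macrophage-like cells of libraries 1 to 6. Another 4 of 29 had their lowest level in the same library, Junb and Jund in library 6 and Hspa1a and Hspa1b in library 3, beside 4.38% of genes. Without library 1 the number with the same highest library was 0, and without library 4 it was 8. Library 3 also had the highest mitochondrial share (2.36%) and the fewest cells (2919), and their part in its low chaperone levels was not tested.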

How the data were processed

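Single-cell libraries were made by the authors from sorted CD45+ synovial cells with a 3′ kit. Per the labels, reads were processed with Cell Ranger 7 on mm10, and the study's methods name SoupX for ambient RNA, DoubletFinder and Seurat. The deposited matrix holds whole UMI counts for 20394 genes in 32953 cells. Doublets were not called again. Entries stored as 0 made up 1.68% of entries over all genes and 12.9% for Hspa1a, the highest share among the members.

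Counts were scaled to 10000 per cell, and 2000 variable genes without the members gave 30 principal components, 15 neighbours and 33 Leiden clusters at resolution 1.0 (Scanpy, Python 3.11.15). A cluster was named where at least 3 markers of a class were detected in 25% of its cells, with a marker among its 30 leading genes and no other class ahead among its 10 leading genes. The 4 clusters left unnamed held 2726 cells. UMIs were summed per class and library (CPM). Libraries with under 20 cells of a class were left out of comparisons of class pairs. The comparisons with every other class kept all libraries and were repeated without those of under 20 cells of the other classes, a choice made after values were seen, as were the comparisons within libraries. A gene was tested if it averaged 5 CPM in either class, or for comparisons with every other class, in the class or the highest other library, and was higher or lower where the library ranges did not meet. Every member is named. Library values were given for up to 4 members in each direction of a comparison, by pooled ratio among those with at least 20 CPM. Of 30 further immediate-early symbols, 28 were found. The members and lists were chosen with earlier results of these data known, and the comparisons with every other class and between neutrophil-like clusters after values were seen. The other denominator left out mitochondrial genes and the 50 genes with the most UMIs over all cells. All counts with cells assigned by marker genes are given without the share of all genes under that assignment. No p-values are given, since classes come from the same cells.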

Additional observations from a re-analysis of the deposited data

How the results depend on the processing

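Counts of members whose library ranges did not meet, and the pooled ratios of summed levels, were recomputed with members among the clustering genes, at resolutions 0.5 and 2.0, with cells assigned by marker genes, with the other denominator, within each library (added after seeing the data) and without each library. No direction reversed, and 67 of 82 counts stayed within 1.5 times. Inflammatory macrophage-like against neutrophil-like cells gave 18 higher and 1 lower, but 4 and 2 by marker genes and 10 and 3 with the other denominator. Without the Fcnb-led cluster, left out after seeing the data, 2 were lower. Within every library 2 were lower against neutrophil-like cells, 15 higher and 3 lower against monocyte-like cells, and 20 higher in T cell-like against B cell-like cells. Against monocyte-like cells, 2 were lower in place of 1 at resolution 2.0 and by marker genes. Marker genes gave 2 in place of 8 lower in neutrophil-like against granulocyte precursor-like cells, 2 in place of 4 lower in T cell-like against B cell-like cells, and 1 in place of 4 members with the same highest library. Adding 2 unnamed B-type clusters, also chosen after seeing the data, gave 2 lower in T cell-like cells. The pooled immediate-early ratio of 1.76 was 1.74 with members kept, 2.03 at resolution 2.0, 1.40 by marker genes, 1.21 with the other denominator, 1.59 as the median within libraries, 1.15 as a mean over cells and 1.39 without the Fcnb-led cluster. The heat shock ratio of 3.11 was 3.13 with members kept, 3.05 at resolution 0.5, and 2.04, 2.14, 3.31, 3.53 and 3.65 in the same order. Leaving out 1 library gave ratios of 1.70 to 1.82 and 2.90 to 3.31, 1 to 2 lower against neutrophil-like cells, 9 to 14 higher and 1 to 3 lower against monocyte-like cells, and 0 to 8 members with the same highest library. The causes were not tested. No paired analysis was possible because the replicate numbers of the PBS and PEPITEM samples are not tied to libraries. Classes alone could be compared within a library. Mast cell-like values rest on 15 to 68 cells per library.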
